A study of Mus musculus with 12 samples.

Results

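Potassium channels let potassium leave the cell and so set the membrane potential, and transcripts of 53 genes whose symbol starts with Kcn carried an m6A peak in colon of mice with TNBS colitis or in normal colon. They were taken by symbol from the 6 deposited peak lists, as every Kcn gene with a peak in any list, and are 53 of the 11548 genes with a peak. RefSeq names 98 Kcn genes in the mouse, so 54.1% of the family had a listed peak, namely 52 of 94 protein-coding genes and 1 of 4 other transcripts. N6-methyladenosine (m6A) is an internal modification of mRNA, and a peak is a stretch where RNA pulled down with an antibody against m6A is enriched over the input RNA of the same tissue.

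The samples were colon of wild-type C57BL/6J mice, male per the labels, aged 6 to 8 weeks and weighing 20 to 22 g. In 3 mice a 5% w/v solution of TNBS, a hapten that provokes colitis, had been introduced into the colon through the anus, and 3 mice on normal feed were the controls. Each mouse gave a pulled-down library and an input library, 12 libraries in all, and 1 peak list. The whole colon was sampled, so muscle, epithelium, enteric neurons and other cells share each list, and fewer cells of a type and less RNA per cell cannot be told apart.

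In colonic smooth muscle, potassium channels that open on depolarisation, on calcium or when ATP falls damp excitability and contraction. In crypt epithelium, channels of the basolateral membrane return potassium to the blood side and keep up the electrical drive for chloride and fluid secretion. In enteric neurons, voltage-gated channels and their accessory subunits set firing threshold and spike width.

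The lists held 18752, 10971 and 19285 peaks in TNBS 1, TNBS 2 and TNBS 3, against 16488, 16324 and 13992 in normal 1, normal 2 and normal 3. TNBS 2 is thus the shortest list. Although all mice were labelled male, TNBS 1 and TNBS 3 listed 0 peaks on the Y chromosome outside the Erdr1 and Gm21857 genes, TNBS 2 listed 19 and each normal list 14. The counts of genes and regions listed in 1 group alone are therefore also given with TNBS 2 as the only TNBS library and without TNBS 2. The extraction protocol names retinas although the tissue is given as colon: of 10 retina markers 1, Abca4, had a peak, in TNBS 2 alone. Of 11 smooth muscle markers 10 had a peak in some list (9, 8 and 9 in the TNBS lists, 7, 7 and 9 in the normal lists), of 8 epithelial markers 6 (5, 4 and 6, against 4, 5 and 4) with Cdh1 and Krt18 in no list, and of 12 neuronal markers 8 (3, 4 and 6, against 3, 5 and 5). Their part in the results below was not tested.

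A few sequences place the peaks on the transcripts. Kcnip1, a calcium-binding accessory subunit of A-type voltage-gated channels, was the 1 Kcn gene with a peak in every TNBS list and no normal list. That peak, chr11:33992749-33993193 on the minus strand, began, on that strand, exactly at the most upstream of 3 Kcnip1 starts with a start sequence. The RefSeq gene interval reaches 155 bases further upstream than this start, so some bases shown before it lie inside the gene. The sequence around this start is shown first (GRCm38.p6, RefSeq, chr11:33993164-33993443, minus strand), with the first 30 transcribed bases in capitals, followed by the first 30 transcribed bases at the other Kcnip1 starts (chr11:33843657-33843686 and chr11:33680653-33680682), which no peak covered.
Kcnip1 start with peak: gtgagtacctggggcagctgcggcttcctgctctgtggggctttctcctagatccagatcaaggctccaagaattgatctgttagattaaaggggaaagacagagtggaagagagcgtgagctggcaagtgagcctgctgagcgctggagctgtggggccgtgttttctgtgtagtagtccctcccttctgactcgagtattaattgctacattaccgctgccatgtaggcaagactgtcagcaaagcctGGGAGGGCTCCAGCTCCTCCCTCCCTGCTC
Kcnip1 other start: gttcattcatgattggtactcggccccctg
Kcnip1 other start: gaggaagctaggctggtggaaataaccctg

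Peaks that began at the first transcribed base recurred among the channels. Over all genes, 4304 plus-strand and 4194 minus-strand peaks also began exactly at a RefSeq first base. Whether listed peaks were cut at annotated bounds was not tested. Exact starts and equal lengths therefore do not place m6A to the base. Shown are the first 30 transcribed bases of 4 genes whose start peaks carry results below, taken from RefSeq for GRCm38.p6: Kcnk5 (chr14:20181753-20181782, minus strand), Kcnma1 (chr14:24004176-24004205, minus strand), Kcnn3 (chr3:89520164-89520193, plus strand) and Kcnn4 (chr7:24370263-24370292, plus strand). For Kcnf1 the transcribed bases 21 to 50 are shown (chr12:17176839-17176868, minus strand), with GGAC, a common core of the m6A consensus, in capitals.
Kcnk5: gtactgtcgcgcgcgcagaggcggcacacg
Kcnma1: gctgttgatgggtgttcggggtggcgctgg
Kcnn3: attgagccagcgaggagtgaagctgagtct
Kcnn4: ctgctgcagttaccactccccagagggcac
Kcnf1: gtgcgcggctgccccttgagGGACttggta
Among 14 annotated starts of 13 Kcn genes that a region overlapped, 1 (7.14%) held GGAC in its first 50 transcribed bases, at base 41 of Kcnf1, and the share over all 32851 annotated starts was 18.9%. GGAC was searched on the transcribed strand only, and the peaks reach well past this window. The RefSeq gene interval also reaches 905 and 437 bases upstream of the starts shown for Kcnma1 and Kcnn4.

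Kcn transcripts with a peak numbered 40, 26 and 37 in the TNBS lists and 38, 38 and 33 in the normal lists. The means were 34.3 ± 7.37 genes in TNBS and 36.3 ± 2.89 genes in normal colon (SD, n = 3 each), a difference of -2.0 that lies within the spread. The low TNBS value is that of TNBS 2, and the groups overlap. As a share of the 53 members this is 75.5%, 49.1% and 69.8% in TNBS, against 71.7%, 71.7% and 62.3% in normal lists. The corresponding shares of all 11548 genes were 82.6%, 59.6% and 81.7% in TNBS and 78.2%, 76.8% and 70.6% in normal lists, so Kcn genes stood below all genes in each of the 6 lists. With the 10971 strongest peaks of each list, 24, 26 and 24 Kcn genes remained listed in TNBS and 25, 26 and 27 in normal colon. TNBS 2 then no longer stood apart. This equal list length keeps every TNBS 2 peak and trims the other lists, so a TNBS 2 peak always stays.

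**Figure D1:**
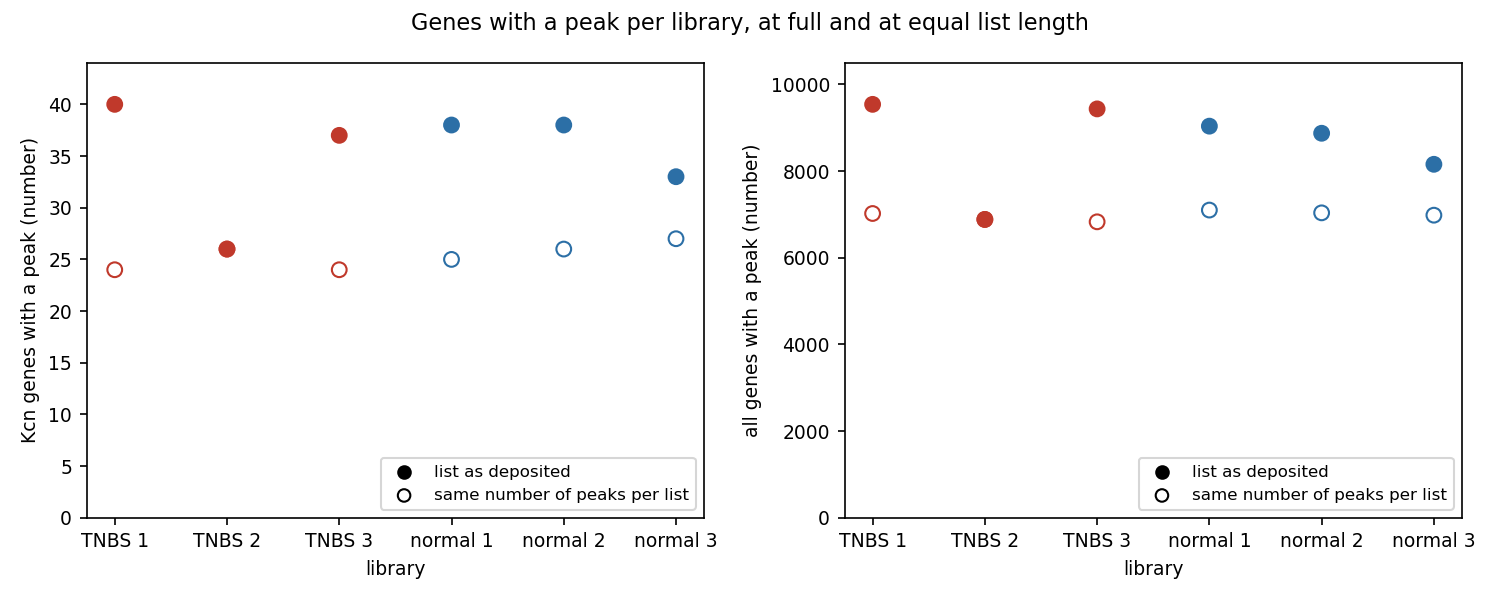
Genes with a peak (y axis, number) in each library (x axis) for Kcn genes on the left and all genes on the right, with filled points for the lists as deposited and open points for the 10971 strongest peaks of each list. TNBS 2 is lowest with the full lists (26 Kcn genes), and at equal list length all libraries lie between 24 and 27 Kcn genes.

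Of the 53 genes 22 (41.5%) had a peak in all 6 lists, against 48.1% of all genes. A peak was listed in more TNBS than normal libraries for 12 (22.6%, against 21.1% of all genes), in more normal than TNBS libraries for 17 (32.1%, against 23.9%) and in equal numbers for 24. Of the 17, 5 differed through TNBS 2 alone, as did 1325 of the 2760 such genes overall. Complete separation of the groups was rare: 1 of 53 genes (1.89%) had a peak in 3 of 3 TNBS and 0 of 3 normal lists, against 0.996% of all genes. In the other direction it was 0 of 53, against 1.04%. For a gene with 3 against 0 the two-sided exact permutation p is 0.1, the smallest that 3 against 3 libraries allow, so no gene can go below it. These p-values measure the spread between mice as labelled. With TNBS 2 as the only TNBS library, 3 of the 46 Kcn genes then listed would be in TNBS alone (Kcna4, Kcnh5 and Kcnip1; 4.9% of all genes) and 8 in normal alone (16.9% of all genes; among them Kcnf1, Kcnj10, Kcnk13, Kcnk6, Kcnmb1, Kcnn4 and Kcnq3). Without TNBS 2 the counts were 2 in TNBS alone (4.77% of all genes), Kcnip1 and Kcnip3, and 0 in normal alone (1.3%).

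**Figure D2:**
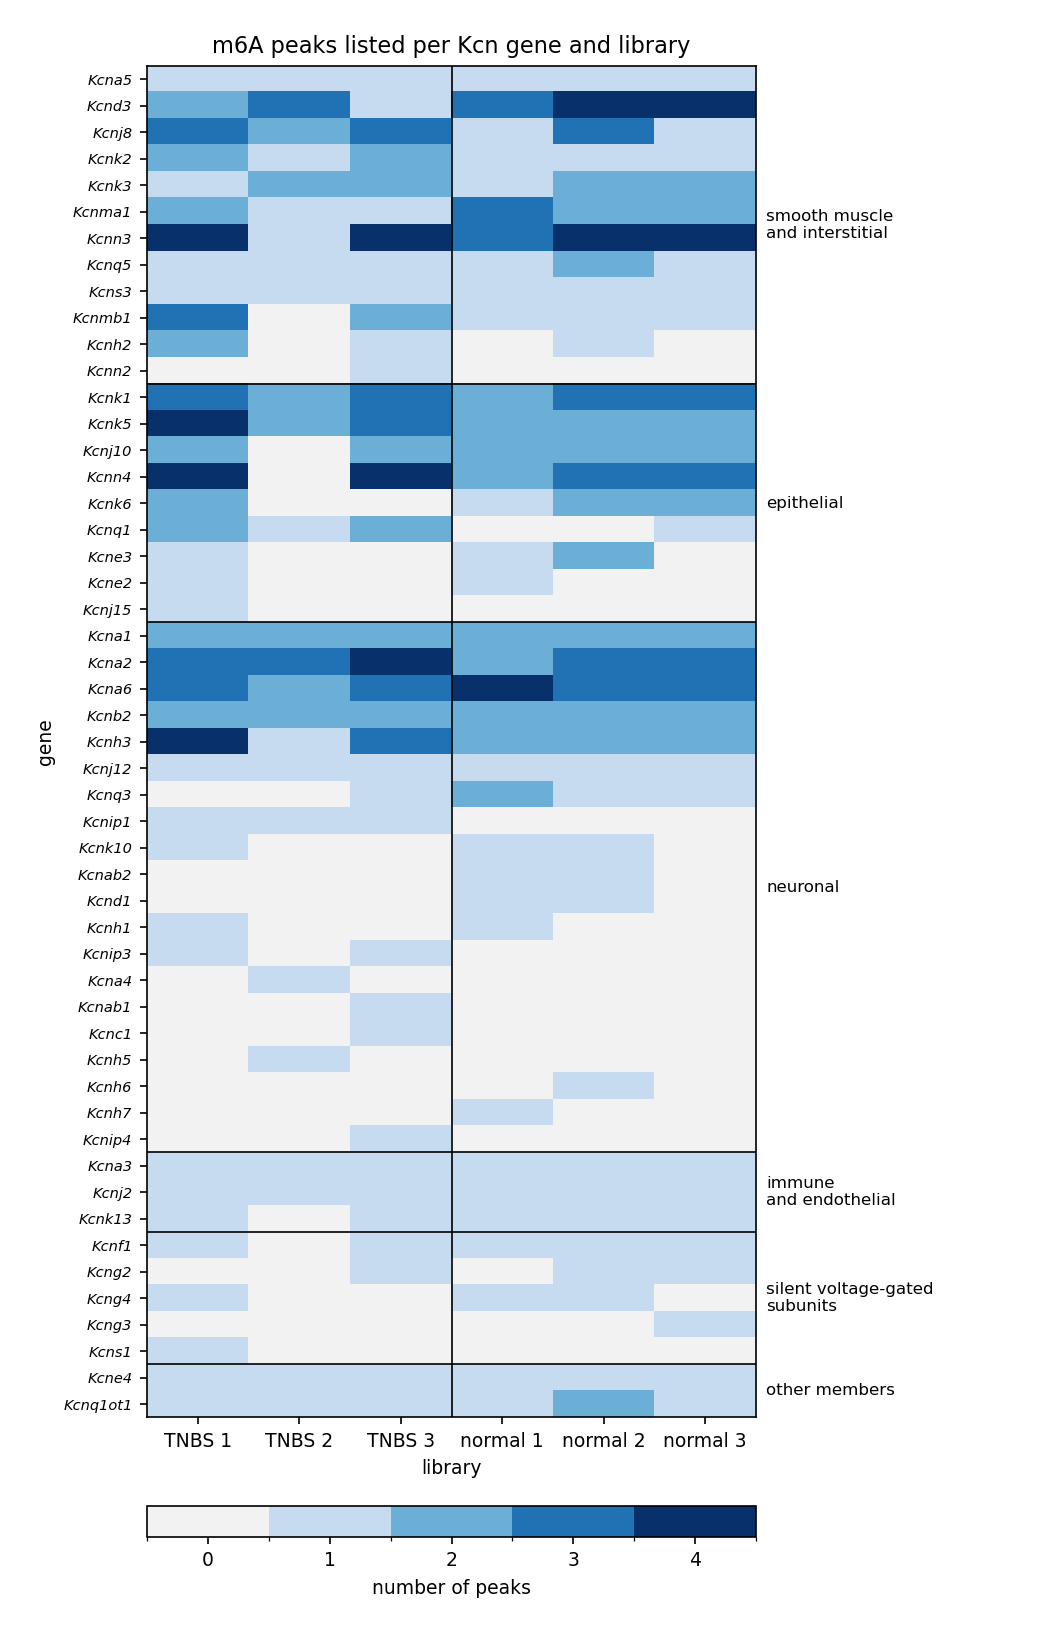
Number of peaks of Kcn genes (rows, by role) in each of the 6 libraries (columns). Genes with a peak in every library fill whole rows, TNBS 2 has most gaps, and Kcnip1 is the row filled in all TNBS and no normal libraries.

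Most smooth muscle and interstitial channels were listed in both groups. Of 15 channels on this list 13 had a peak, and 10 of them had one in all 6 lists, among them Kcna5, Kcnd3, Kcnj8, Kcnk2, Kcnk3, Kcnma1, Kcnn3, Kcnq5 and Kcns3. Counts per list were 12, 10 and 13 in TNBS and 11, 12 and 11 in normal colon, or 11.7 ± 1.53 against 11.3 ± 0.577 (SD, n = 3 each), a difference within the spread. Kcnj11, another ATP-sensitive channel pore, had no listed peak.

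The strength of a peak is described by its percentile, the rank of its score, a measure of the caller's p, within its own list. The percentile and the fold enrichment (pulled-down over input signal) rest on the authors' values for each peak, called list by list. They describe a list and are not compared between groups. The score ties at 3100 for many peaks, so the order at the top is coarse. Kcns3, a silent subunit that forms no channel alone, had a peak in every list, chr12:11090666-11092755, within 1000 bases of the gene's 3′ end. Its fold enrichment was 23.3, 7.25 and 20.6 in the TNBS lists and 19.9, 14.4 and 15.1 in the normal lists.

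Kcnn3 encodes a small-conductance calcium-activated channel known from interstitial cells that carry inhibitory nerve signals to muscle, and its strongest peak had a mean percentile of 89.4. Its start region chr3:89520164-89521404, opening with the bases shown above, was 1241 bases long in each of the 6 lists, with a fold enrichment of 43.6, 18.9 and 43.7 in TNBS and 34.8, 31.6 and 40.0 in normal colon. Its 3 other regions were absent from TNBS 2. Regions chr3:89667085-89669401 and chr3:89670726-89672494, near the 3′ end, were in TNBS 1, TNBS 3 and all normal lists. Kcnn2, of the same channel family, had a peak in TNBS 3 alone.

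Kcnj8 is the pore of the ATP-sensitive channel of vascular and visceral smooth muscle. The region at its 3′ end, chr6:142564939-142566505, was in all 6 lists, with a fold enrichment of 15.9, 12.5 and 12.4 in TNBS and 12.5, 11.7 and 10.2 in normal colon. A short region near the 5′ end, chr6:142571184-142571356, was in 3 TNBS lists (fold enrichment 25.0, 5.43 and 17.9) and in normal 2 (5.40), with an exact permutation p of 0.4. In TNBS 2 that peak stood at percentile 2.11 of its list, close to the lower limit of calling. At equal list length it was in 3 TNBS and 0 normal lists, but that setting leaves the TNBS 2 list whole. The normal 2 peak it cut had a higher score (89.14) than the TNBS 2 peak it kept (53.02), so this count separates no groups.

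Kcnma1, the pore of the large-conductance calcium- and voltage-activated channel, had its start region chr14:24003748-24004205 in all 6 lists, 458 bases long in each. The fold enrichment was 10.5, 4.77 and 9.08 in TNBS and 7.45, 5.03 and 7.14 in normal colon. Further along the gene, region chr14:23299366-23300045 was in normal 1 and normal 2 alone. Kcnmb1, the accessory subunit that raises calcium sensitivity of this channel in smooth muscle, had its main region chr11:33970095-33972589 in TNBS 1 and TNBS 3 (8.12 and 13.2) and in all normal lists (7.20, 6.06 and 7.81). TNBS 2 listed no Kcnmb1 peak, whereas TNBS 1 and TNBS 3 listed another short region, chr11:33964677-33964834, in no normal list.

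Kcna5, a voltage-gated channel of vascular and visceral muscle, had 1 merged region, chr6:126532692-126535555, from its start to its last 1000 bases. Only the TNBS peaks reached the first 50 transcribed bases. On this minus-strand gene the peaks of normal 1, normal 2 and normal 3 began further along, at 126533907, 126535438 and 126534536. The fold enrichment was 20.7, 37.6 and 50.4 in the TNBS lists and 10.9, 13.4 and 18.2 in the normal lists. The peak was 2723, 2714 and 2864 bases long in TNBS and 838, 2649 and 1826 bases long in normal colon. The normal 2 length was thus close to the TNBS lengths, and those of normal 1 and normal 3 were shorter. No test was made of either value, because peaks were called separately. The share of all regions that differ in this way was not computed, so these values describe this gene only.

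Kcnd3, the pore of an A-type current, had region chr3:105458739-105459921 in all 6 lists, and a 3′ region, chr3:105669008-105673115, in all but TNBS 3. Kcnk3, an acid-sensitive background channel, had chr5:30621891-30625270 in all 6 lists and a second, shorter region in TNBS 3, normal 2 and normal 3. Kcnk2, a background channel opened by stretch, ranked lowest of the 22 genes in all lists, with a mean percentile of 15.02. Its start region was in all 6 lists only as merged. In TNBS 1, TNBS 3 and the normal lists the peak was chr1:189343301-189343707, from 1 of the 4 annotated starts. In TNBS 2 it was chr1:189343043-189343353, from another of these starts further downstream, with partial overlap. This start region lies 59075 bases inside the gene's 5′ end. The merged region at the 3′ end of Kcnk2, chr1:189207930-189210107, was in TNBS 1 and TNBS 3 alone, with the TNBS 1 peak only from chr1:189209374. Kcnq5, an M-type channel described in smooth muscle and neurons, had chr1:21401659-21403125 in all 6 lists, at percentile 6.52 in TNBS 2 and 27.2 or above elsewhere. Kcnh2, the ERG channel, had a 3′ region in TNBS 1 and TNBS 3 (chr5:24319589-24320149) and an internal one in TNBS 1 and normal 2.

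**Figure D3:**
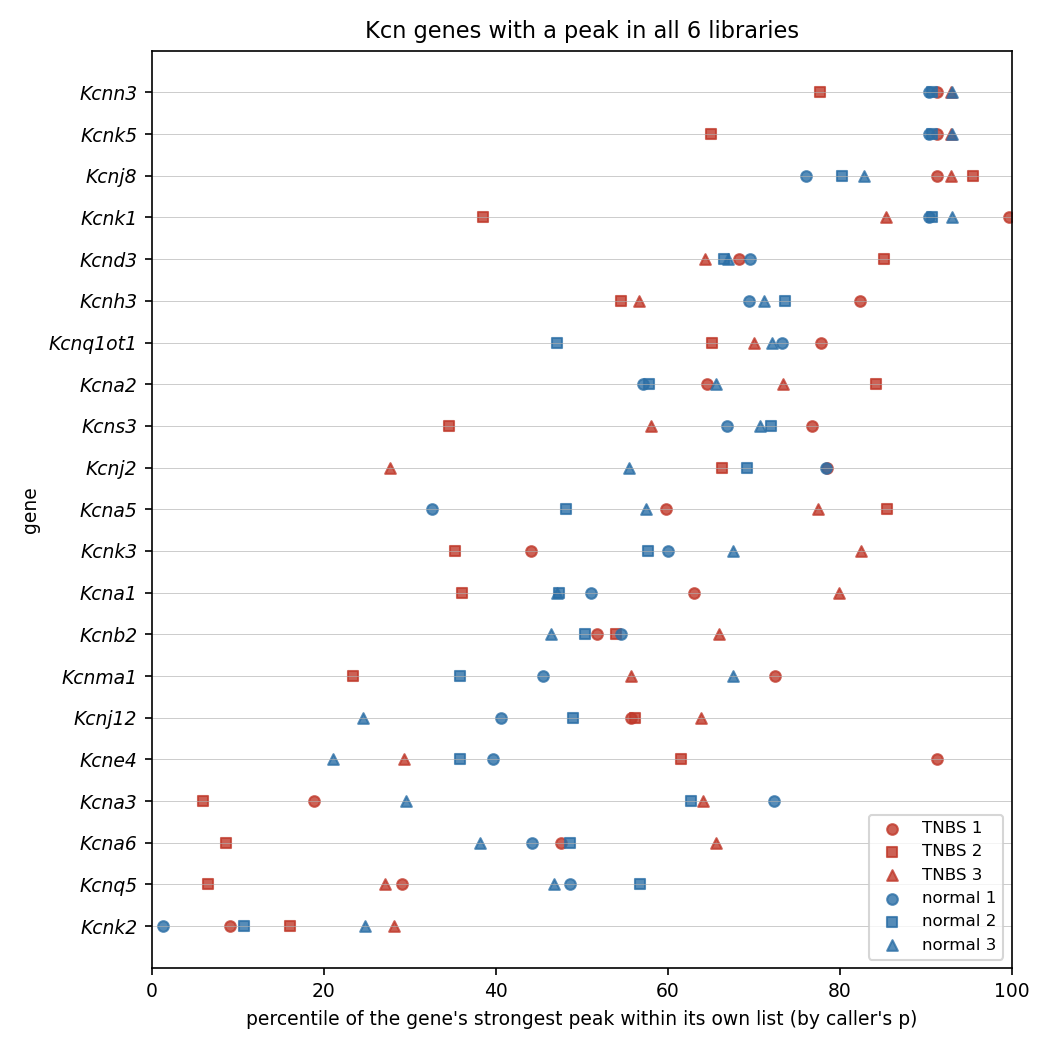
Percentile of the strongest peak within its own list (x axis) for Kcn genes with a peak in all 6 libraries (rows, ordered by the mean), with 1 point per library coloured by group. Of the genes shown, Kcnn3 (mean 89.4), Kcnk5 (87.3) and Kcnj8 (86.5) stand highest and Kcnk2 (15.02) lowest; the percentiles come from separate lists and order genes within a list.

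Epithelial channels were listed unevenly among TNBS mice. Of 12 channels on this list 9 had a peak: 9, 3 and 5 in the TNBS lists and 7, 6 and 6 in the normal lists, or 5.67 ± 3.06 against 6.33 ± 0.577 (SD, n = 3 each). TNBS 1 listed every one of the 9 and TNBS 2 only Kcnk1, Kcnk5 and Kcnq1, so the groups overlap and the spread lies within TNBS. At equal list length the counts were 5, 3 and 5 in TNBS and 6, 6 and 4 in normal colon. Kcnj1, Kcnj13 and Kcnj16, inward rectifiers known from transporting epithelia, had no listed peak.

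Kcnq1 and Kcne3 together form the basolateral channel that cAMP opens in colonic crypts, Kcnq1 as the pore and Kcne3 as its accessory subunit. Kcnq1 had a peak in 3 TNBS lists and in normal 3 (exact permutation p = 0.4). One region, chr7:143425910-143427042, was in 3 of 3 TNBS lists and 0 of 3 normal lists (exact permutation p = 0.1). Its fold enrichment was 6.98, 5.68 and 9.47. It lies 8 bases inside the 3′ end of Kcnq1 and outside Kcnq1ot1, the antisense noncoding RNA that starts within Kcnq1. It stood at percentile 51.1, 21.2 and 63.4 of the TNBS lists. At equal list length it was still in 3 of 3 TNBS and 0 of 3 normal lists. That setting keeps every TNBS 2 peak and cannot add a normal peak, so it could not remove the region from TNBS 2. When only peaks with a caller's p up to 1e-10 were kept, the region was in TNBS 1 and TNBS 3, without TNBS 2. The other Kcnq1 region, chr7:143107254-143107741 near the 5′ end, was in TNBS 1, TNBS 3 and normal 3, with a fold enrichment of 10.8, 12.6 and 6.73.

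Kcne3 ran the other way at its 3′ end. Region chr7:100184138-100184869 was in normal 1 and normal 2 (fold enrichment 27.5 and 23.4, percentiles 90.4 and 71.5) and in no TNBS list, with an exact permutation p of 0.4, and normal 3 did not list it either. A peak of 84 bases at the Kcne3 start, the shortest Kcn peak, was in TNBS 1 and normal 2. The pore and its accessory subunit were thus listed in different libraries: only TNBS 1 had a peak in both.

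Kcnn4, the intermediate-conductance calcium-activated channel of crypt cells and lymphocytes, had 5 regions, more than any other Kcn gene, and none in TNBS 2. Its start region chr7:24370263-24370595 was 333 bases long in each of the other lists, with a fold enrichment of 30.5 and 32.1 in TNBS 1 and TNBS 3 and 23.5, 17.6 and 17.0 in the normal lists. Its 3′ region chr7:24384637-24385212 had 17.5 and 19.1 in TNBS 1 and TNBS 3 and 18.7, 13.6 and 10.8 in the normal lists. When each list was limited to its 10971 strongest peaks, 35 Kcn genes remained. Of these, 2 were listed everywhere but in TNBS 2, Kcnn4 and Kcnf1. The share of all genes with this pattern at equal list length was not computed, so the 2 names are description only. For the full lists 5 of 53 genes (9.43%) had this pattern, Kcnf1, Kcnj10, Kcnk13, Kcnmb1 and Kcnn4, against 11.5% of all genes.

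Among the background channels of epithelium, Kcnk5, an alkali-activated channel of transporting epithelia, had peaks in all 6 lists at both gene ends. The 3′ region chr14:20140058-20142457 was 2400 bases long in each list, with a fold enrichment of 56.8, 9.26 and 90.4 in TNBS and 23.7, 14.8 and 16.6 in normal colon. The start region chr14:20181267-20181782 was 516 bases long in each list. A short region between them, chr14:20144635-20144803, was in TNBS 1 and TNBS 3 alone.

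Kcnk1, a weakly conducting background channel, had region chr8:126025012-126025407 in all 6 lists (fold enrichment 25.4, 8.52 and 31.4 in TNBS and 10.7, 13.8 and 11.98 in normal colon). At its 3′ end, region chr8:126029492-126030688 stood at percentile 99.7 in TNBS 1, 82.2 in TNBS 3 and 90.4, 90.7 and 93.1 in the normal lists. TNBS 2 did not list it, so a peak that ranked high by score in each of the other lists was missing there. The normal percentiles are those of the tied score of 3100. By fold enrichment this peak did not stand high. It had 6.85 in TNBS 1 and 7.61 in TNBS 3, below the medians of all peaks in these lists, 9.82 and 12.5. In each normal list its fold enrichment was also below the list median. Kcnk6, a related background channel, had chr7:29221928-29225259 in TNBS 1 (7.99) and in all normal lists (10.01, 9.20 and 6.71), with an exact permutation p of 0.4. Kcnj10, an inward rectifier of glia and epithelia, had a peak in all lists but TNBS 2. Kcne2, an accessory subunit best known from the stomach, had one in TNBS 1 and normal 1, and Kcnj15 in TNBS 1 alone.

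**Figure D4:**
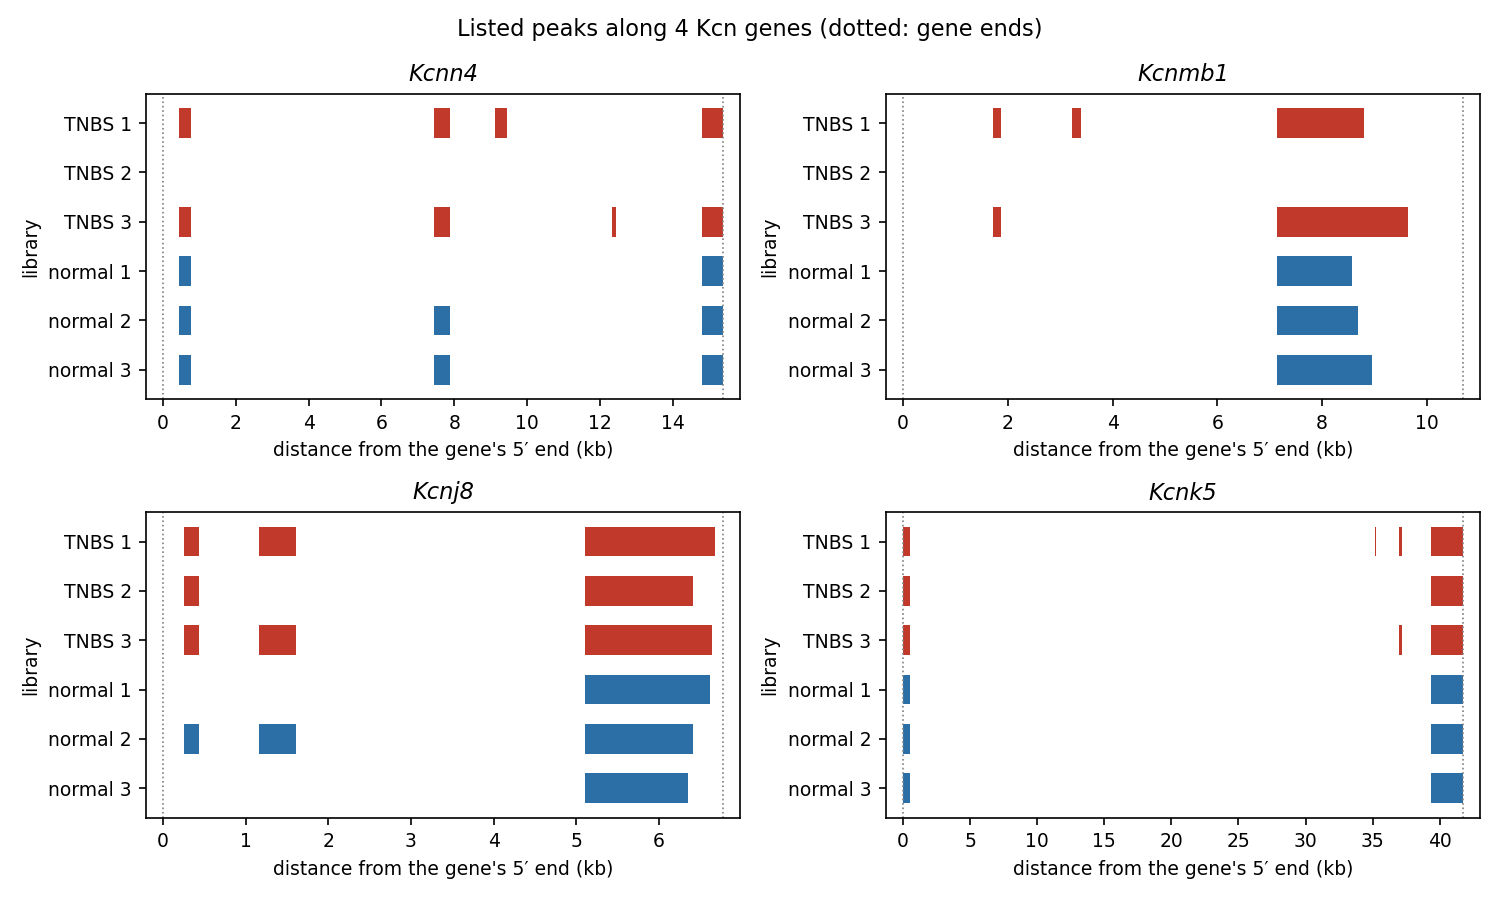
Listed peaks (bars) along Kcnn4, Kcnmb1, Kcnj8 and Kcnk5 in each library (rows), against distance from the 5′ end of the gene (x axis, kb), with gene ends as dotted lines. Peaks at the ends of Kcnk5 and at the 3′ end of Kcnj8 are in all 6 libraries, TNBS 2 lists no Kcnn4 or Kcnmb1 peak, and the short extra regions of Kcnmb1 and Kcnk5 are in TNBS 1 and TNBS 3 or TNBS 1 alone.

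Neuronal channels had a peak for 21 of 41 listed genes, 11, 9 and 12 in the TNBS lists and 13, 12 and 8 in the normal lists, or 10.7 ± 1.53 against 11 ± 2.65 (SD, n = 3 each). The groups overlap. A peak was in all 6 lists for 6: Kcna1, Kcna2 and Kcna6, low-threshold channels of axons, Kcnb2, a delayed rectifier, Kcnh3, of the ether-a-go-go family, and Kcnj12, an inward rectifier. The 20 channels with no listed peak include Kcnd2, Kcnc2 and Kcnn1.

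Kcna2 had 3 regions. The strongest region, chr3:107103945-107106283, had a fold enrichment of 13.0, 33.0 and 23.4 in TNBS and 14.96, 13.9 and 15.2 in normal colon. The region at its 3′ end, chr3:107112705-107115002, was in 3 TNBS lists and in normal 3 (exact permutation p = 0.4), so the groups overlap in normal 3. Kcnh3 had chr15:99239595-99242796 in all 6 lists only as merged, with 35.2, 11.8 and 17.9 in TNBS and 22.8, 22.3 and 17.1 in normal colon. TNBS 2 listed only chr15:99241597-99242796 there, while the other lists also had a peak from chr15:99239595. A short Kcnh3 region, chr15:99238075-99238292, was in TNBS 1 and TNBS 3 alone.

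The Kcnip genes encode calcium-binding subunits that bring A-type channels to the membrane and change their gating. The Kcnip1 peak had a fold enrichment of 4.91, 5.99 and 9.39 in TNBS 1, TNBS 2 and TNBS 3 and was 445 bases long in each. It stood low in its lists, at percentile 11.1, 28.3 and 26.3, and normal 1, normal 2 and normal 3 had no Kcnip1 peak (exact permutation p = 0.1). When only peaks with a caller's p up to 1e-10 were kept, it was no longer in 3 of 3 TNBS lists, and at equal list length TNBS 2 alone listed it. Kcnmb1 lies within the Kcnip1 interval on the opposite strand, and its peaks do not reach the Kcnip1 region. Kcnip3 had a peak at its 3′ end, chr2:127456498-127458388, in TNBS 1 and TNBS 3 (8.66 and 6.32; exact permutation p = 0.4). Kcnip4 had one at a start in TNBS 3, at percentile 2.95 of that list, and Kcnip2 had none. No Kcnip gene had a peak in a normal list, so Kcnip1, Kcnip3 and Kcnip4 are members only through their TNBS peaks. This grouping was chosen after these values were seen. No share over all genes was computed for it, so it is description only.

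A difference of 2 or more libraries was found in both directions. Of the 53 genes 5 (9.43%, against 5.69% of all genes) were so, among them Kcnab2, Kcnd1, Kcnk6 and Kcnq3, each with an exact permutation p of 0.4. In the other direction there were 3 (5.66%, against 6.74%), Kcnip1, Kcnip3 and Kcnq1. Kcnab2, a cytoplasmic subunit of Shaker-type channels, had chr4:152391974-152393124 in normal 1 and normal 2 (fold enrichment 6.08 and 4.86) and no TNBS peak. Kcnd1, an A-type pore that Kcnip subunits bind, had chrX:7823499-7824762 in normal 1 and normal 2 (8.57 and 7.16) and no TNBS peak. Neither was in normal 3, the shortest normal list.

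Kcnq3, a pore of the M-current that holds neurons below threshold, had chr15:65994408-65995905 in TNBS 3 (5.05) and in all normal lists (5.77, 6.89 and 6.56). With only the peaks at a caller's p up to 1e-10, the TNBS 3 peak is lost and Kcnq3 is the 1 Kcn gene in 3 of 3 normal and 0 of 3 TNBS lists. A peak in 1 list alone was found for 11 of the 53 genes over all roles (20.8%). The share of all genes with this pattern was not counted, in total or by group, so the names are given as description only. In TNBS these were Kcna4 and Kcnh5 (TNBS 2), Kcnj15 and Kcns1 (TNBS 1) and Kcnab1, Kcnc1, Kcnip4 and Kcnn2 (TNBS 3), and in normal colon Kcng3 (normal 3), Kcnh6 (normal 2) and Kcnh7 (normal 1). Kcnh1 had a peak in TNBS 1 and normal 1, and Kcnk10 in TNBS 1, normal 1 and normal 2.

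**Figure D5:**
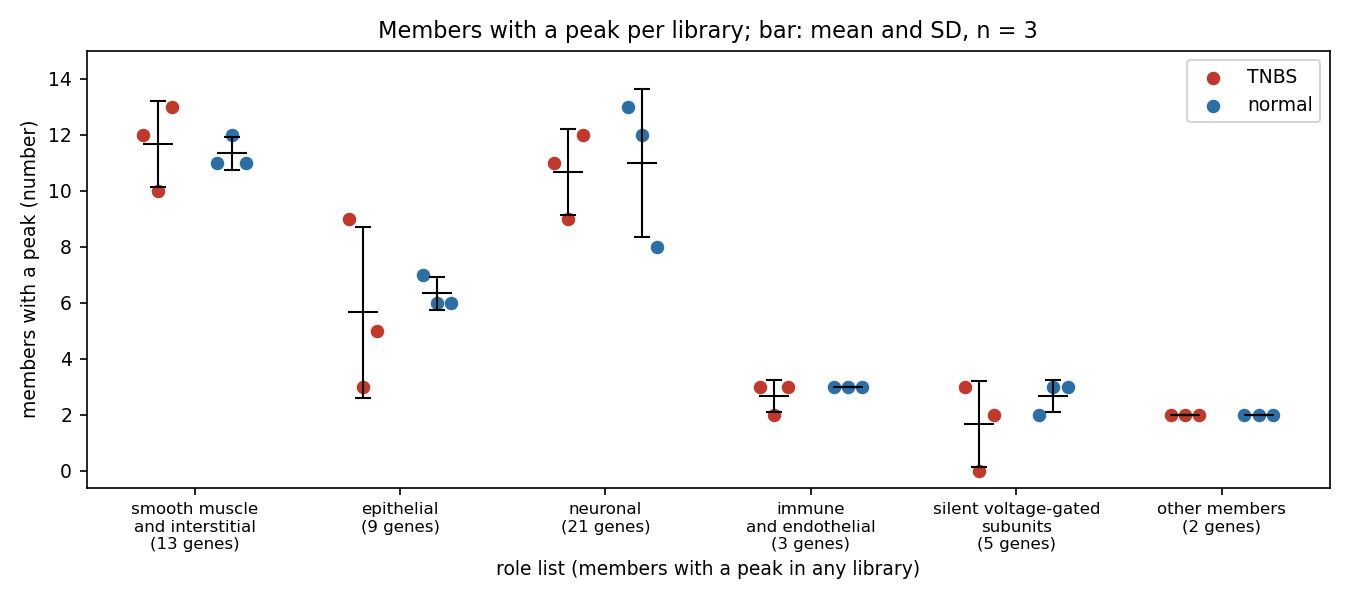
Members with a peak in each library (y axis, number) for each role list (x axis), with 1 point per library and bars for the mean and SD (n = 3). TNBS and normal libraries overlap in each list, and the epithelial list spans 3 to 9 members in TNBS and 6 to 7 in normal colon.

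Channels of immune and endothelial cells were listed almost throughout. Kcna3, the voltage-gated channel of T cells, and Kcnj2, an inward rectifier of endothelium and muscle, had a peak in all 6 lists. Kcna3 had chr3:107036216-107038129 at its 3′ end, with a fold enrichment of 4.61, 5.62 and 14.1 in TNBS and 14.4, 14.2 and 5.37 in normal colon. Kcnk13, a background channel of microglia and other cells, was missing from TNBS 2 alone. Among 9 immune markers 2, 2 and 2 had a peak in TNBS and 2, 2 and 1 in normal lists, with Adgre1, Cd3e, Cd4 and S100a8 in no list.

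Silent voltage-gated subunits form no channel alone and change the channels they join. Of 9 on the list besides Kcns3, 5 had a peak: 3, 0 and 2 in TNBS and 2, 3 and 3 in normal colon. Kcnf1 was in all lists but TNBS 2, as 1 merged region from its start to its last 1000 bases. Only the normal 2 peak (from chr12:17172492) reached those last 1000 bases. The TNBS 3 peak (to chr12:17176584) did not reach the start. The fold enrichment was 20.1 and 12.1 in TNBS 1 and TNBS 3 and 21.4, 14.9 and 14.4 in the normal lists. Kcng2 and Kcng4 each had a peak in 1 TNBS and 2 normal lists. Outside these lists, Kcne4, an accessory subunit that dampens several voltage-gated channels, and the noncoding Kcnq1ot1 had a peak in all 6.

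The 362 Kcn peaks fell into 92 merged regions, of 26654 over all genes, where peaks sharing at least 1 base were joined. A single region was found for 29 genes and 5 regions for Kcnn4, with 4 each for Kcnk5 and Kcnn3. Kcn peaks were long: the median was 1082, 1272 and 1130 bases in the TNBS lists and 1303, 1172 and 1190 in the normal lists. The medians over all peaks were 518, 616 and 477 bases in TNBS and 623, 608.5 and 656 in normal lists, so Kcn peaks were the longer in each list. By the rank of the strongest peak, however, the median Kcn gene stood at percentile 51.6, 46.2 and 59.0 in TNBS and 52.0, 48.8 and 55.5 in normal lists. The median over all genes was 65.2, 58.8 and 65.8 in TNBS and 63.8, 63.8 and 61.6 in normal lists, higher in each list.

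Of 70 Kcn regions that could be placed on a RefSeq gene with 1 known strand, 11 (15.7%) reached the first 50 transcribed bases of an annotated start, 21 (30%) the last 1000 bases of the gene, 2 (2.86%) both and 36 (51.4%) neither. The shares over all placed regions were 18.9%, 22.5%, 0.791% and 57.8%. Among regions called in all 6 lists, 20 Kcn regions and 5648 of all regions could be placed. Of these, 30% of Kcn and 30% of all regions reached the last 1000 bases without a start. A start alone was reached by 30% and 20.1%, both by 5% and 1.77%, and neither by 35% and 48.2%. No test was made.

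By region, 28 of 92 (30.4%, against 28.4% of all regions) were in all 6 lists. In 3 of 3 TNBS and 0 of 3 normal lists were 2 (2.17%, against 0.949%), those of Kcnip1 and Kcnq1 described above, and in the other direction 0 (against 1.54%). All lists but TNBS 2 held 10 (10.9%, against 9.48%). TNBS 1 and TNBS 3 alone held 6 (6.52%, against 6.94%), in Kcnh2, Kcnh3, Kcnip3, Kcnk2, Kcnk5 and Kcnmb1, which enter the TNBS count when TNBS 2 is left out and raise it to 8 (8.11% of all regions are then called so), with 0 in normal alone (1.83%). With TNBS 2 as the only TNBS library the counts were 4 in TNBS alone (5.95% of all regions) and 13 in normal alone (17.6%). A further 20 (21.7%, against 24.4%) were in 1 list alone. No Kcn region held a peak that another list gave to a different gene.

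Genes that work beside these channels were counted in 3 further lists. In smooth muscle excitation 15 of 16 had a peak (13, 12 and 13 in TNBS, against 13, 12 and 11 in normal colon), with 9 in all 6 lists, a peak of Cacna2d1, a calcium channel subunit, in 1 TNBS and 3 normal lists, and of Itpr1, a calcium release channel, in 2 and 0. In epithelial ion transport 12 of 15 had a peak (9, 7 and 10, against 8, 7 and 7), with the chloride channel Clcn2 and the water channel Aqp8 each in TNBS 1 and TNBS 3 alone. In neuronal excitability 12 of 17 had a peak (10, 11 and 10, against 11, 9 and 8), with Scn11a, a sodium channel of sensory and enteric neurons, in 3 TNBS lists and normal 1. In none of these lists did a gene have a peak in 3 of 3 libraries of 1 group and 0 of 3 of the other. For each of the genes named here with 2 against 0 or 3 against 1 the exact permutation p is 0.4.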

How the data were processed

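Colon m6A pull-down libraries were each set against their input by the authors, who deposited 1 peak list per mouse. Per the submitters' processing notes CASAVA 1.8 and BWA were used, with hg19 named as build, but the positions match mouse genes of GRCm38. The peak names carry MACS numbering, and its version, its settings and the read depth are not given in the sources used here; the depth of each list is unknown. A listed peak needs enough transcript and reads as well as m6A. Per the file headers each peak has a score, minus 10 times log10 of the caller's p-value (lowest 50), a fold enrichment ratio and a false discovery rate in percent. The rate was 100% for 66.6%, 100% and 100% of TNBS peaks and 10.5%, 13.7% and 37.8% of normal peaks, and was not used to filter.

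Listed starts count from 0 (4304 plus-strand peaks start 1 below a RefSeq first base and 33 on it), so 1 was added. Presence of a peak was counted per gene symbol and per merged region and compared with two-sided exact permutation tests over libraries. Regions were placed with RefSeq for GRCm38.p6, whose start sequences cover 41 of the 53 genes. Named genes are those with a difference of 2 or more libraries, those with regions in 3 against 0 libraries, up to 8 per role list with most libraries, and the 3 with most regions. Others are named with their libraries. Some genes are counted but not reported here by name. The members and lists were chosen with earlier results of these data known. Replicate numbers do not pair the mice: the correlation of same-numbered deviations was 0.0319, -0.0537 and -0.0356. Python 3.11.15, pandas 2.3.3, numpy 2.4.6 and matplotlib 3.10.9 were used, and the counting was checked on simulated data. Alternatives kept only peaks with p up to 1e-10 or with a fold enrichment from 4, or used equal list length, left-out libraries, pairing, 50% overlap, assignment by gene interval and, added after seeing the data, TNBS 2 as the only TNBS library.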

Additional observations from a re-analysis of the deposited data

How the results depend on the processing

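The difference in Kcn genes per library, TNBS minus normal, was -2.0 and lay between -3 and -1.333 under the thresholds and at equal list length, with the pooled SD at 5.6. Leaving out 1 library gave -4.833 to 2.167, with the sign turned only without TNBS 2. With the replicate block the difference was also -2, from pairs of 2, -12 and 4, and the block changed no call. The count of 22 genes with a peak in every library (48.1% of all genes) ran from 16 to 27. The lowest was 16 of 35 at equal list length (48.4% of all genes). The highest was 27 of 51 without TNBS 2 (61.1% of all genes). For the counts that follow, the share of all genes or regions called in the same setting is in brackets. Genes in every TNBS and no normal library (1, Kcnip1) numbered 0 with peaks at a caller's p up to 1e-10 (0.788%). By gene interval there were 0, because Kcnmb1 peaks lie inside Kcnip1, and no share over all genes was computed. The count was 1 at equal list length (Kcnq1, not Kcnip1, 1.44%), a setting that cannot lose a TNBS 2 peak. It was 3 with TNBS 2 as the only TNBS library (4.9%). It was 1 to 2 with a library left out: 2 without TNBS 2, adding Kcnip3 (4.77%), and without normal 3, adding Kcnq1 (1.33%). Genes in all normal lists and no TNBS list (0) came to 1 at 1e-10 (Kcnq3, 1.32%), 8 with TNBS 2 alone (16.9%), and 0 to 2 with a library left out (2 without TNBS 1, among them Kcnk6 (3.09%), Kcnq3 without TNBS 3 (1.88%), Kcnab2 and Kcnd1 without normal 3 (2.28%)). TNBS regions (2) numbered 0 at 1e-10 (0.78%), 4 with TNBS 2 alone (5.95%) and 2 to 8 with a library left out, 8 without TNBS 2 (8.11%). Normal regions (0) numbered 1 at 1e-10 (1.75%), 13 with TNBS 2 alone (17.6%) and 0 to 4 with a library left out: 1 without TNBS 1 (3.56%), TNBS 3 (2.74%) or normal 1 (2.07%) and 4 without normal 3 (3.52%). With fewer libraries the rule is looser, and counts of separated genes can only hold or rise. The cause of the other changes was not tested. Read depth is unknown, so a missing peak does not show that m6A is absent.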

Other observations

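Peaks that the lists give to other genes also lie inside Kcn genes, as RefSeq bounds them in GRCm38. Kcnq1 holds the peaks of Kcnq1ot1, in 3 TNBS and 3 normal lists, and Kcnip1 holds those of Kcnmb1, in 2 TNBS and 3 normal lists. Kcnk7, which has no listed peak of its own, holds peaks named for its neighbour Ehbp1l1 in 2 TNBS and 3 normal lists. Kcnmb3, also without a peak of its own, holds peaks named for Pik3ca in 0 TNBS and 2 normal lists. In such places a peak cannot be given to 1 gene by position alone.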
